A study of Mus musculus with 3 samples.

Results

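Binding of RXRα and RARα was described at 9 genes whose products are secreted by the liver as hormones, growth factors or their carriers. They are Fgf21, Angptl4, Angptl6, Igf1, Igfals, Igfbp2, Sepp1, Fst and Inhbe, which were chosen by name for what they encode and make up 9 of 22367 genes annotated as protein-coding in GENCODE M1 for mouse NCBI37/mm9. The data came from livers of male wild type C57BL/6 mice at an age of 3 months. There were 3 libraries, namely chromatin precipitated with an anti-RXRα antibody, input chromatin sequenced without precipitation, and chromatin precipitated with the Santa Cruz anti-RARα antibody. Each was sequenced once and no sample label gives the number of mice behind a library, so the values describe these libraries, carry no estimate of the variation between animals and allow no test. All libraries came from liver tissue, which holds hepatocytes together with stellate, Kupffer and endothelial cells.

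For RXRα and input the deposited signal is coverage in bins of 32 bp, and it corresponded to 10 M reads in each library. The totals of the libraries are nearly equal, at 9.99983 and 9.99895 M, and the study states a larger number of mapped reads for RXRα, so the signal may have been normalized or subsampled before deposit, and all read counts and intervals given here rest on the deposited signal. For RARα the deposited list holds 143280 peaks with a score, and the list itself does not give the depth behind it. The search window of a gene was 10 kb either side of its start joined with its body. A RARα peak counted where its score was greater than 20. An RXRα region was a stretch of bins with RXRα at least 20 times the input, where the input was taken as no lower than its genome mean of 0.603 per bin, and neighbouring bins up to 200 bp apart were merged. The ratio given for a region is that of its highest bin. A RARα peak was termed co-localized when it shared at least 25% of the narrower interval with an RXRα region. Positions are given as bp from the annotated gene start, with plus for the direction of transcription.

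RXRα and RARα are ligand-activated transcription factors that bind DNA as a heterodimer. RXRα also pairs with other nuclear receptors of the liver, such as PPARα, LXR, FXR and PXR. Several of these pairs read direct repeats of the sequence AGGTCA or close variants of it, with a spacing between the copies that differs between partners. Only direct repeats were searched for here, and copies in other orientations were not. A spacing of 1 base is the classical PPARα-RXRα element, and a spacing of 5 bases is the classical RARα-RXRα element. Several of the genes described here are hormones of fasting and feeding. Fgf21 is a fasting hormone and a textbook PPARα target, Angptl4 inhibits lipoprotein lipase and is induced by fatty acids through PPARs, and Igf1, made in liver under growth hormone, circulates bound to carrier proteins.

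The genomic sequences under the strongest RXRα regions are shown first, for the 5 genes where the ratio of RXRα over input was above 100, because the results on where RXRα bound turn on these sites. Each is given on the plus strand of mm9 from 5′ to 3′, with 100 bp either side of the middle of the highest bin, except that the sequence at Inhbe stops at the gene start and has 184 bp. Capitals mark direct repeats of AGGTCA with a spacing of 1 to 5 bases and at most 2 mismatches over the 12 letters of both copies, which appear as TGACCT where the repeat is on the minus strand.
Fgf21, chr7:52865004-52865204, downstream of the gene: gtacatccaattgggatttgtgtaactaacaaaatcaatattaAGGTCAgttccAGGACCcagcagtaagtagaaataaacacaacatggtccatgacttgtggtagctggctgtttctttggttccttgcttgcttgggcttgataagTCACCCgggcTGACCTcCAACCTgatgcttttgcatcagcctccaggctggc
Angptl4, chr17:33916236-33916436, in an intron: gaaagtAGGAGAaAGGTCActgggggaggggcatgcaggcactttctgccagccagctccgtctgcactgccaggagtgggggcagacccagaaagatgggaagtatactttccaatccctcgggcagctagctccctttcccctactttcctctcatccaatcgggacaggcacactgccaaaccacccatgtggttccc
Igf1, chr10:87368972-87369172, in an intron: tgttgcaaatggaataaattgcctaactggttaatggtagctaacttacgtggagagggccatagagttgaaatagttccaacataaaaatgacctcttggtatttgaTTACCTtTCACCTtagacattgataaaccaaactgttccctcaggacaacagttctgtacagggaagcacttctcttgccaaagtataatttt
Sepp1, chr15:3220044-3220244, in an intron: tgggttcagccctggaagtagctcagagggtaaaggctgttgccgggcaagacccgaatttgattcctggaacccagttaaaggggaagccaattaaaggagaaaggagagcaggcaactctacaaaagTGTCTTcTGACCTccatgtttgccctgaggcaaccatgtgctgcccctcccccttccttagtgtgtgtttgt
Inhbe, chr10:126788829-126789012, upstream of the start: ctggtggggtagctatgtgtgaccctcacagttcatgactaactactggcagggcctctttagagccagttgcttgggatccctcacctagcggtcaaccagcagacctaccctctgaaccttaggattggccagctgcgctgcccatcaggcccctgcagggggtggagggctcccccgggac
Of these windows, those of Fgf21, Angptl4, Igf1 and Sepp1 each held a repeat with a spacing of 1 base. That of Inhbe held no such repeat at any spacing, and neither did the strongest windows of Angptl6, Igfals, Igfbp2 and Fst. For the strongest region of each gene, the share with a spacing of 1 base was 4 of 9 (44.4%, Wilson interval 18.9 to 73.3%). Over all RXRα regions it was 12.03%. No share was computed over the strongest regions of all genes, so the excess cannot be called particular to these genes. In the Fgf21 window the capitals mark 3 repeats, with spacings of 5, 4 and 1 bases from left to right, and the last 2 share letters.

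RXRα bound all 9 genes, against 47.9% of all protein-coding genes with an RXRα region in their window. RARα had a peak at 8 of 9, against 57.9% of all genes, and the exception was Fgf21. A co-localized RARα peak was present at the same 8 genes, against 27.2% of all genes. In total the windows held 99 RARα peaks, of which 32 were co-localized (32.3%, 95% Wilson interval 23.9 to 42.0%), and 43 RXRα regions, of which 31 were. The share of regions was not computed over all genes. Among the 26057 RARα peaks in the windows of all genes, 32.6% were co-localized, so the share per peak at these genes lay near that of all genes while the share per gene lay above it. The windows are of unequal length, since Igf1 spans 78783 bp and Fgf21 1584 bp, and Igf1 alone held 49 of the RARα peaks and 20 of the RXRα regions. The intervals cover counting error only and treat abutting peaks as independent.

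**Figure D1:**
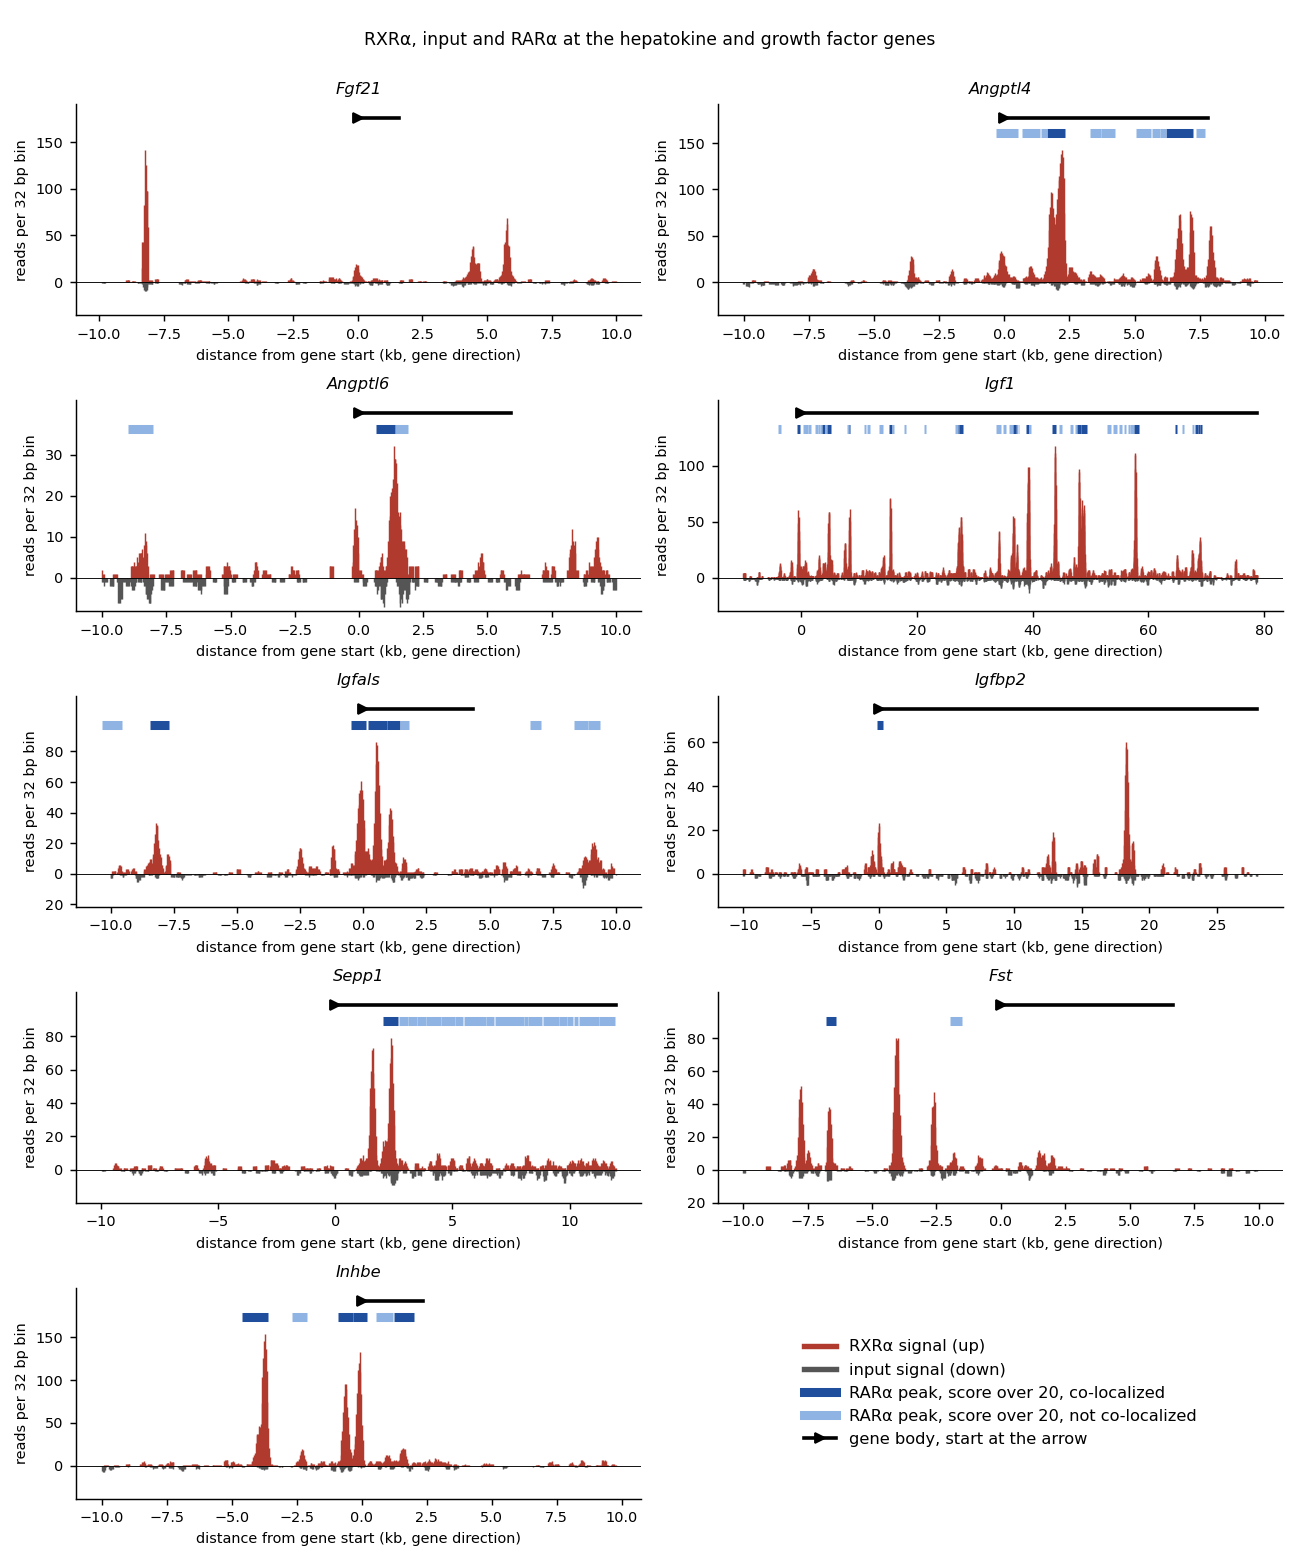
RXRα signal (red, upward) and input signal (grey, downward) in reads per 32 bp bin against the distance from the gene start in kb, 1 panel for each gene with its own scale, with the gene body as an arrow and RARα peaks with a score over 20 as blue bars (dark where co-localized). RXRα formed narrow peaks over a low input at each gene, Fgf21 had no bar at all, and Sepp1 had bars along most of its body.

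Within the equal windows of 10 kb either side of the start, which compare genes of any length, the 9 genes had 1.37 to 5.47 times as many RXRα reads as input reads. Their median was 4.24, against 1.09 over all genes. The lower 95% bound was above 1 at each of the 9, and above 1.09 at all but Igfbp2. Angptl4 was highest with 1126 RXRα and 206 input reads (5.47, 95% interval 4.71 to 6.37). Inhbe followed with 842 and 172 reads (4.89, 4.15 to 5.80), Igfals with 635 and 138 (4.60, 3.82 to 5.57), Fgf21 with 442 and 99 (4.46, 3.58 to 5.61) and Igf1 with 610 and 144 (4.24, 3.53 to 5.12). The intervals of these neighbours in the order overlapped, so their order is not resolved by counting error. Fst had 421 and 120 reads (3.51, 2.86 to 4.33), Sepp1 455 and 189 (2.41, 2.03 to 2.87) and Angptl6 237 and 118 (2.01, 1.60 to 2.53). Igfbp2 was lowest with 134 RXRα and 98 input reads (1.37, 1.05 to 1.79). Its interval overlapped that of Angptl6 and lay below those of the other genes.

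**Figure D2:**
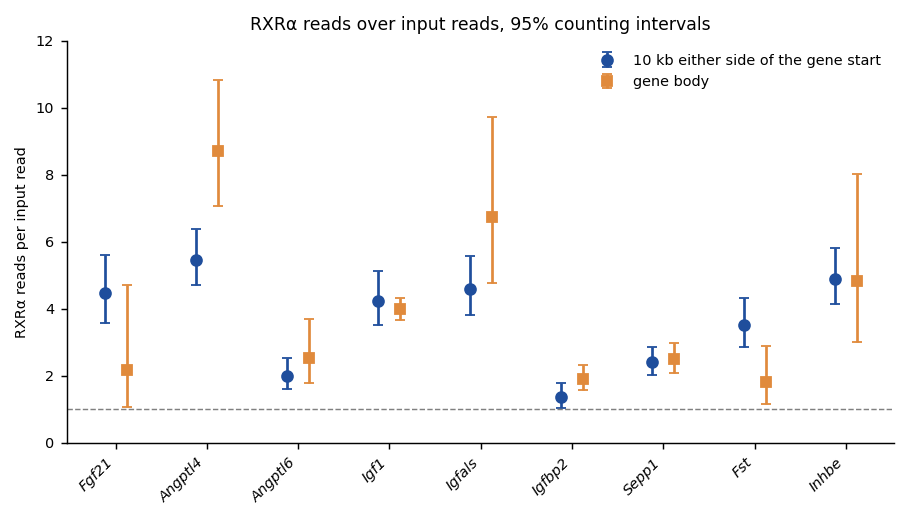
RXRα reads per input read for each gene, within 10 kb either side of the start (blue circles) and over the gene body (orange squares), with 95% binomial counting intervals as bars and a dashed line at 1. Angptl4 had the highest value in both regions (5.47 and 8.70). Fgf21 and Fst had lower values over the body (2.17 and 1.81) than around the start (4.46 and 3.51), with intervals that overlapped.

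Fgf21, which encodes a hormone that the liver releases in fasting (ENSMUSG00000030827.4, chr7:52869277-52870860, minus strand), had 3 RXRα regions and no RARα peak with a score over 20. Its strongest region lay 5756 bp downstream of the start, beyond the end of the gene, where the highest bin had 69 RXRα reads over an input of 0. This was 114 times the genome mean input and 23.0-fold over an assumed input of 3 reads, which is used here wherever the input of the bin was 0. Such a fold ignores the counting error of RXRα and the choice of the bin for its ratio, so it is not a lower bound. Over 1 kb around this bin there were 100 RXRα and 7 input reads, which was 14.3-fold (95% interval 6.68 to 36.4). A second downstream region at +4412 had 36 reads over an input of 0, a ratio of 59.7 and 12-fold over 3 reads. The third, at -8100 and inside an intron of the neighbouring gene Izumo1, had a ratio of 29.5. It held the highest RXRα signal of the whole window, 141 reads in a bin where the input had 10. Near the start RXRα reached 19 reads at -68, where the input had 3, and the highest ratio there was 11, which is below the threshold.

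The RARα list was not empty at Fgf21. It held 3 peaks with scores under the threshold, of 19 at -8235, 14 at +50 and 9 at +5600. The RXRα enrichment across them was 14.1, 5.26 and 21.9. Here and below, enrichment is the mean RXRα signal over the mean input signal across a peak, with that input taken as no lower than its genome mean. Without a score threshold, 2 of these 3 peaks were co-localized. Thus RARα was listed with scores under 20 at the start and at the RXRα regions at +5756 and -8100, and no RARα peak of any score was listed at the +4412 region. The gene body had 26 RXRα and 12 input reads (2.17, 1.06 to 4.71). This interval overlapped that of the window around the start (4.46, 3.58 to 5.61), so the lower value over the body is not resolved by counting error.

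Angptl4, an inhibitor of lipoprotein lipase (ENSMUSG00000002289.9, chr17:33910695-33918520, minus strand), had 11 RARα peaks and 4 RXRα regions. The strongest RXRα region was intronic at +2184, where the highest bin had 138 RXRα reads and 1 input read. It extended over 992 bp, and 1 kb around its top held 419 RXRα and 15 input reads (27.9-fold, 16.7 to 50.4), the largest value of the 43 regions. A RARα peak with a score of 50 lay over it at +2105 (chr17:33916191-33916881) and had an RXRα enrichment of 28.8. An intronic response element for PPARs is well described for this gene, and the sequence printed above, with its repeat AGGAGAaAGGTCA, is from this region. The other RXRα regions lay at the 3′ end, at +6824, +7112 and +7880, with ratios of 42.0, 54.0 and 56.0. The first of these and its neighbour were under a RARα peak with a score of 46. The region at +7112 held AGGTCAaAGGACA, the only repeat with a spacing of 1 base and 1 mismatch among the RXRα regions of the 9 genes, on the minus strand at chr17:33911349-33911361.

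The highest RARα score of Angptl4 was elsewhere. It was 179, at +35 over the start and the untranslated region (chr17:33918001-33918850), where RXRα enrichment was 5.44. Near the start RXRα reached 34 reads at -120, where the input had 2, and the highest ratio, 19.9, came from a bin with 12 reads over an input of 0, just under the threshold. That peak was therefore not co-localized. The remaining 8 RARα peaks that were not co-localized had scores of 27 to 41 and lay along the gene. One of them, with a score of 27 at +1525 and an RXRα enrichment of 10.7, touched the strongest RXRα region by less than 25%, and with an overlap of 1 bp as the rule Angptl4 had 3 co-localized peaks. Counting the low scores too, 21 RARα peaks abutted one another over 8510 bp, 11 of them with a score over 20, and RARα peaks over 20 covered 71.7% of the gene body. RXRα over the body was 861 reads against 99 of input (8.70, 7.06 to 10.8), the highest of the 9 genes.

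Angptl6, which encodes a liver-secreted member of the same family (ENSMUSG00000038742.5, chr9:20678253-20684154, minus strand), had 3 RARα peaks and 1 RXRα region. The region was in a coding exon at +1354, with 32 RXRα reads over an input of 0 in its highest bin (ratio 53.1, 10.7-fold over 3 reads). Around it 1 kb held 84 RXRα and 18 input reads (4.67-fold, 2.78 to 8.25). RARα scores were 75 at +1609 and 71 at +1244, in abutting peaks, of which the second was co-localized. RXRα enrichment across them was 3.87 and 4.52. Both summits lay in CpG-rich coding sequence, with 24 and 23 CpG within 100 bp either side. The third peak, with a score of 58 at -8471, was over the untranslated region of Ppan, and its RXRα enrichment was 1.55.

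Igf1, the growth hormone-dependent growth factor (ENSMUSG00000020053.11, chr10:87321010-87399792, plus strand), had 49 RARα peaks and 20 RXRα regions, and 18 of the peaks were co-localized. RXRα regions were spread over the introns from +4062 to +68990, with 1 upstream at -450 and 1 in an untranslated region at +75102. The strongest lay at +48062, with 94 RXRα reads over an input of 0 (ratio 156, at least 31.3-fold), and 1 kb held 230 RXRα and 12 input reads (19.2-fold, 10.8 to 37.6). It extended over 896 bp under a pair of RARα peaks with scores of 34 and 40. The repeat in its printed sequence, AGGTGAaAGGTAA on the minus strand, lay 14 bp from the highest bin.

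The highest RARα score of Igf1 was 61, at +43775, and this peak coincided with the second RXRα region, at +43902, with a ratio of 117 from 117 RXRα reads over a single input read in its top bin. Across the RARα peak the RXRα enrichment was 33.7. Further RXRα regions had ratios of 94.0 at +57790, 89.6 at +8350, 81.3 at +4702 and 76.3 at +36766, each under a RARα peak with a score of 21 to 32. Upstream of the start, the region at -450 had 54 RXRα reads and 1 input read and was co-localized with a RARα score of 24. Igf1 has 9 annotated starts, from 87321010 to 87324074 on chromosome 10, and this region lies before the first of them.

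RARα scores at Igf1 were low compared with the other genes, with a median of 26 and a range of 21 to 61, although a further 144 peaks with scores up to 20 were listed, so that RARα peaks of any score covered 85.5% of the body and those over 20 covered 29.1%. The 18 co-localized peaks had a median RXRα enrichment of 10.9 (4.20 to 33.7) and the other 31 had 2.80 (0.0968 to 10.3). Over the whole body RXRα had 2990 reads and input 750 (3.99, 3.68 to 4.32). The genes most like Igf1 in highest RXRα ratio and highest RARα score, among 9047 genes with both, were Ap1ar with 158 and 61 and C2cd3 with 156 and 63.

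Igfals encodes the acid-labile subunit that holds IGF1 in the large circulating complex (ENSMUSG00000046070.7, chr17:25014600-25018955, plus strand). It had 9 RARα peaks, of which 6 were nearest to Igfals, and 5 RXRα regions. Binding gathered around the start. One RXRα region covered 864 bp from just upstream of the start into the gene, with a top ratio of 55.0 at -56 (55 reads against 1), and 1 kb held 145 RXRα and 9 input reads (16.1-fold, 8.26 to 35.9). The highest RXRα signal lay inside this region at +520, with 86 reads where the input had 5. The strongest ratio, 71.4, was at +1064 in an untranslated region, where there were 43 reads over an input of 0 (at least 14.3-fold).

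RARα followed the same sites at Igfals. A score of 60 at -205, of 26 at +635 and of 58 at +1075 were all co-localized, with RXRα enrichments of 15.8, 14.2 and 8.78. The fourth co-localized peak, with a score of 23 at -8160, lay over a pair of RXRα regions with ratios of 33.2 and 21.6 and had an enrichment of 18. The RXRα region at -2520, with a ratio of 28.2, had no RARα peak of any score. The 3 RARα peaks nearest to other genes were at +6805 and +8645 in Nubp2, with scores of 29 and 45, and at +9075 in Spsb3, with a score of 32. They were not co-localized, although the last had an RXRα enrichment of 13.1.

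Igfbp2, an IGF-binding protein of plasma (ENSMUSG00000039323.11, chr1:72871077-72899048, plus strand), had the sparsest binding. Its only RARα peak, with a score of 46 at +38, and its only RXRα region, with a ratio of 28.2 at -53, lay together over the start in sequence with 17 CpG within 100 bp of the RARα summit. The region had 17 RXRα reads over an input of 0 (at least 5.67-fold), and 1 kb held 44 RXRα and 4 input reads (11-fold, 4.0 to 42.1), so it rests on few reads. The RXRα enrichment across the RARα peak was 17.5. The highest RXRα signal was not there but in the body at +18315, with 60 reads against 4 of input, and a RARα peak with a score of 17 lay over it at +18298 with an RXRα enrichment of 11.9. Neither passed its threshold. The body as a whole had 297 RXRα and 156 input reads (1.90, 1.56 to 2.33).

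**Figure D3:**
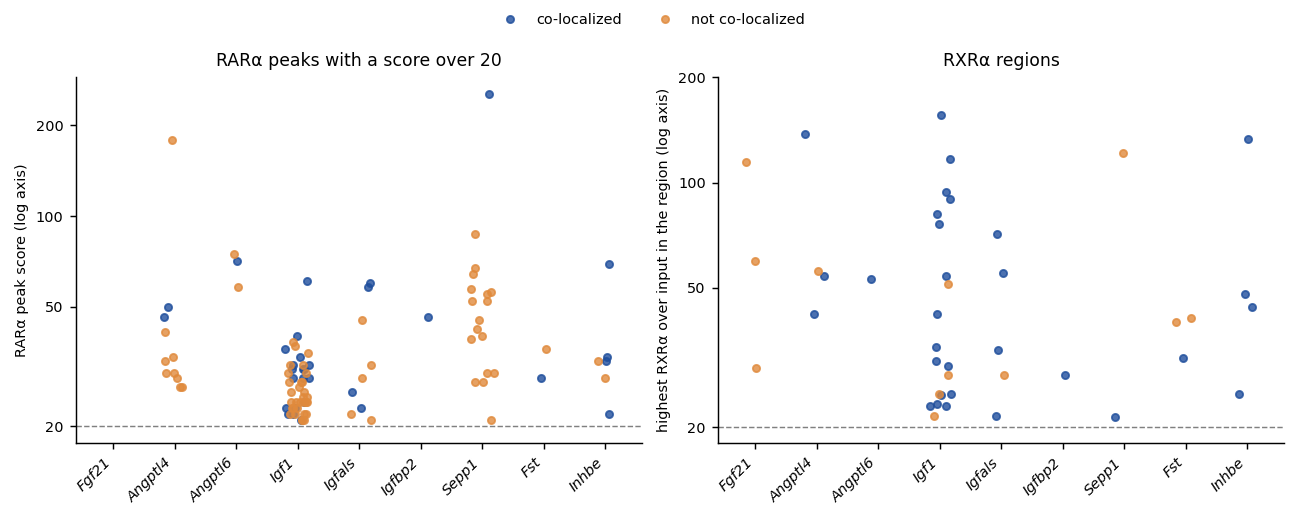
Scores of the RARα peaks (left) and highest ratios of RXRα over input in the RXRα regions (right) for each gene on log axes, with 1 point for each peak or region, blue where co-localized and orange where not, and dashed lines at the thresholds of 20. Sepp1 and Angptl4 had the highest RARα scores (255 and 179), while the highest RXRα ratio was at Igf1 (156) and the lowest top ratio at Igfbp2 (28.2).

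Sepp1 encodes selenoprotein P, the plasma carrier that brings selenium from the liver to other organs (ENSMUSG00000064373.5, chr15:3218547-3230508, plus strand). It had the highest RARα score of the 9 genes, 255, in a peak at +2468 (chr15:3220581-3221241), and 18 RARα peaks with a median score of 48.5. Those peaks abutted one another without a gap of more than 10 bp over 9881 bp, from 3220581 to 3230461 on chromosome 15, and covered 81.6% of the gene body. When abutting peaks were merged, Sepp1 had 1 RARα peak. The gene has 6 annotated starts, and 4 of them (3220767, 3220811, 3220921 and 3220998) lie under the peak with the score of 255.

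RXRα did not follow this run. The RXRα enrichment was 5.58 across the RARα peak with the score of 255, with 124 RXRα and 22 input reads, and had a median of 1.58 with a range of 0.409 to 6.16 across the other 17 peaks. RXRα had 2 regions. The stronger lay before the run at +1597 in an intron, with 73 reads over an input of 0 (ratio 121, 24.3-fold over 3 reads) and 126 RXRα and 12 input reads in 1 kb (10.5-fold, 5.80 to 20.9), and the only RARα peak there had a score of 15. This is the sequence printed above, with the repeat AGGTCAgAAGACA on the minus strand. The weaker region, at +2333, was a single bin with 64 RXRα and 3 input reads, a ratio of 21.3. It made the RARα peak with the score of 255 the only co-localized one of Sepp1, and at a threshold of 30 times input Sepp1 had none.

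Fst encodes follistatin, a secreted protein that binds and blocks activins (ENSMUSG00000021765.6, chr13:115242470-115249159, minus strand). All of its RXRα regions and its RARα peaks with a score over 20 lay in intergenic sequence upstream of the gene. Inside the gene RARα had lower scores, of 17 at +1639 and 13 at +1479, with RXRα enrichments of 10.4 and 13.3. The RXRα regions were at -2569, -4009 and -6569, with ratios of 41.0, 40 and 31.5. The middle one had the most reads, 127 RXRα and 16 input in 1 kb (7.94-fold, 4.70 to 14.3). RARα had a score of 36 at -1816, which was not co-localized and had an RXRα enrichment of 2.81, and a score of 29 at -6661, which was co-localized with an enrichment of 6.59. The region at -2569 had no RARα peak of any score and the one at -4009 had a RARα peak with a score of 16. Over the body RXRα had 56 reads and input 31 (1.81, 1.14 to 2.90), and RARα peaks over 20 covered 0% of it.

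Inhbe encodes the inhibin βE chain, which forms activin E and is made mainly in liver (ENSMUSG00000047492.4, chr10:126786458-126788828, minus strand). It was the gene where RXRα and RARα met most closely. The highest RXRα ratio, 133 at -84 with 133 reads against 1 of input, lay 37 bp from the summit of the highest RARα peak, with a score of 69 at -47 (chr10:126788641-126789161). The RXRα enrichment across that RARα peak was 38.3, the highest of the 99, and 1 kb around the RXRα top held 226 RXRα and 11 input reads (20.5-fold, 11.3 to 41.7). This is the promoter sequence printed above. All 4 RXRα regions of Inhbe were co-localized.

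The other sites of Inhbe were a region at -628 with a ratio of 48.0 and a RARα score of 33, a region at -3604 with a ratio of 44.0 and a RARα score of 34, and a region at +1676 with a ratio of 24.9 and a RARα score of 22. The distal one had the most reads, 257 RXRα and 12 input in 1 kb (21.4-fold, 12.05 to 42.0), and its highest signal, 154 reads at -3732 over 4 of input, was the highest of any bin in the windows of the 9 genes. The RARα peak with the score of 22 held the only direct repeat of the 99 peaks that matched the strict search, which allowed AGGTCA, the variant AGTTCA, the variant GGGTCA or the variant GGTTCA for each copy with a spacing of 1 to 5 bases, on both strands. It has a spacing of 1 base, lies in the untranslated region on the minus strand at chr10:126787274-126787286, and its summit is 5 bp away. Capitals mark both copies, read on the minus strand from 126787294 to 126787266.
Inhbe, strict repeat: ctgggtgaAGTTCAaGGTTCAagttgggg

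How far apart the highest RARα score and the highest RXRα ratio were differed between the genes. At Inhbe they were 37 bp apart, at Igfbp2 91 bp and at Angptl6 255 bp. At Fst they were 753 bp apart, at Sepp1 871 bp, at Igfals 1269 bp, at Angptl4 2149 bp and at Igf1 4287 bp. By place, 65 of the 99 RARα peaks lay in introns, with 13 in untranslated regions, 11 in intergenic sequence, 9 in coding exons and 1 in another exon. Of the RXRα regions 21 were in introns and 15 in intergenic sequence, 6 were in untranslated regions and 1 was in a coding exon. Most of the intronic peaks and regions were those of Igf1, which alone held 49 of the RARα peaks and 20 of the RXRα regions. The intron counts thus mainly describe this long gene. Within 1 kb of the outermost annotated start there were 10 of the RARα peaks and 5 of the RXRα regions. Shares by place or by distance were not computed over all genes. By that start, most RXRα regions at these genes were thus further away. Igf1, Sepp1 and Igfals have 9, 6 and 3 annotated starts, and some regions lie near a later one. At Igfals the region at +1064 ends at 25015680, near the start at 25015715. At Sepp1 the region at +2333 lies between the starts at 3220811 and 3220921.

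Across the 99 RARα peaks the RXRα enrichment had a median of 4.50, against 4.25 over the RARα peaks of all gene windows, and was above 1 at 93. The co-localized peaks had a median RARα score of 31.5 (21 to 255) and the others 29 (21 to 179). Their scores thus overlapped almost entirely. The RXRα enrichment was 10.9 (4.20 to 38.3) at co-localized peaks and 2.77 (0.0968 to 13.1) at the others, a difference that the definition of co-localization brings with it. Spearman's rho between score and enrichment was 0.106 over the 99 peaks, 0.430 over the 49 of Igf1, 0.104 over the 18 of Sepp1 and 0.365 over the 81 outside Sepp1. These values are descriptions, since peaks of 1 gene share a library and often abut.

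**Figure D4:**
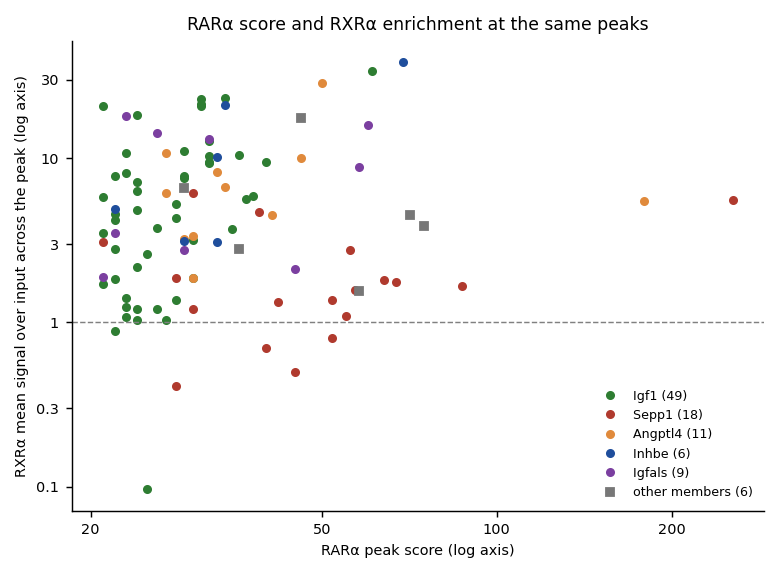
RXRα enrichment over input against RARα score for the 99 RARα peaks on log axes, coloured by gene with the number of peaks in brackets, and with a dashed line at an enrichment of 1. The Sepp1 peaks lie low for their scores, between 0.409 and 6.16, while the peak of Inhbe with a score of 69 and that of Igf1 with 61 lie highest, at 38.3 and 33.7.

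Of the 43 RXRα regions, 40 overlapped a RARα peak of some score, compared with 31 that were co-localized with a peak over 20. Neither share was computed over all RXRα regions, so these counts cannot be called particular to the 9 genes. RARα peaks of any score covered from 7.50% of the gene body at Fst to 97.8% at Angptl4, and where cover is high an overlap is easily met. The 3 regions without any were Fgf21 at +4412, Igfals at -2520 and Fst at -2569. The median ratio of the 43 regions was 42.0 (21.3 to 156), against 34.8 over the regions of all gene windows. The median highest ratio within 10 kb of the start was 89.6 over the 9 genes and 14.9 over all genes. By this value Angptl4, Inhbe, Sepp1 and Fgf21 stood at the percentiles 98.4, 98.1, 97.5 and 97.1 among all genes, Igf1 at 94.3 and Igfals at 91.1, and Angptl6, Fst and Igfbp2 at 85.4, 79.7 and 69.0. By the highest RARα score in the same distance the order was another one, with Sepp1 at 99.9, Angptl4 at 99.3, Angptl6 at 89.0, Inhbe at 86.4, Igfals at 81.7, Igfbp2 at 71.6, Igf1 at 64.6 and Fst at 62.7. With the tracks exchanged, that is with input at least 20 times RXRα, there were 41 regions in the genome and 0 at the 9 genes.

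The strict search for direct repeats found 1 in the 99 RARα windows, 100 bp either side of the summit, and 0 in the 43 RXRα windows. Over all RARα peaks with a score over 20 the share was 0.677%, and over all RXRα regions it was 2.98%. A second search, chosen after seeing this result, allowed at most 2 mismatches to AGGTCA over both copies on either strand, where matches may overlap. It does not contain the strict search, since the strict repeat of Inhbe exceeds 2 mismatches and was not among its matches. The second search found a repeat in 13 of the 43 RXRα windows (30.2%, 95% Wilson interval 18.6 to 45.1%), against 28.5% over all RXRα regions. With a spacing of 1 base there were 7 of 43 (16.3%, 8.12 to 29.97%), against 12.03% over all. The RARα windows held a repeat of the second search in 11 of 99 (11.1%), against 12.7% over all RARα peaks. Over all windows of the 9 genes the shares thus lay near those of all sites. A match is a description of letters and not a binding site shown by these data.

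Genes that act with the 9 secreted proteins were read in the same way, from lists of their receptors, relatives and pathway partners. Over all genes, 57.9% had a RARα peak, 47.9% an RXRα region and 27.2% a co-localized RARα peak. Of the FGF21 receptors and hormonal FGFs, 8 of 9 had a RARα peak (88.9%). An RXRα region was present at 8 of 9 (88.9%) and a co-localized RARα peak at 7 of 9 (77.8%). Klb, the co-receptor of FGF21, had a top RXRα ratio of 101 at +8711 and a RARα score of 23. Fgf15 had no co-localized peak, and Fgf23, a hormone of bone, had no peak or region. The highest RARα score of that list was 120, at Fgf1. Its highest ratio, 166, belonged to Fgfr2, but the site lies 2525289 bp from the annotated start and is nearest to Tacc2, and it is counted because the annotated Fgfr2 record reaches over it.

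Of the angiopoietin-like family, the lipases they act on and the lipase partners Gpihbp1 and Lmf1, 5 of 9 had a RARα peak (55.6%, against 57.9% of all genes). An RXRα region was present at 6 of 9 (66.7%, against 47.9%) and a co-localized peak at 2 of 9 (22.2%, against 27.2%). The genes with a co-localized peak were Lipc, hepatic lipase, with a ratio of 117 at +17361, and Lipg, endothelial lipase, with a RARα score of 155 at +42. Lpl, the lipase that ANGPTL4 inhibits and that adult liver expresses little, had no RXRα region and a RARα score of 22. Angptl2 and Angptl7 had neither.

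All 15 genes of the IGF axis and growth hormone signalling had a RARα peak and an RXRα region, against 57.9% and 47.9% of all genes. A co-localized peak was present at 8 of 15 (53.3%, against 27.2%). The highest ratio was 189 in the window of Stat5b, which transmits the growth hormone signal, although that site is nearest to Ghdc. The highest RARα score was 166 at +37 of Igfbp4. The growth hormone receptor Ghr had 14 RARα peaks with scores up to 77 and 11 RXRα regions, and the receptor for IGF1, Igf1r, had 1 RARα peak and no co-localization.

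The next list joined genes for selenoprotein synthesis, for selenoprotein P receptors and for other selenoproteins such as Gpx1 and Dio1. Of these genes 15 of 15 had a RARα peak, against 57.9% of all genes. An RXRα region was present at 14 of 15 (93.3%, against 47.9%) and a co-localized peak at 9 of 15 (60.0%, against 27.2%). Lrp8, the receptor that takes up selenoprotein P in brain and testis, was the gene without an RXRα region. The highest ratio was 149 at +7086 of Dio1, which activates thyroid hormone, and the highest RARα score 260 at +38 of Gpx1. In the activin and follistatin family 15 of 17 had a RARα peak (88.2%, against 57.9%), with Inha and Fstl3 lacking one. An RXRα region was present at 12 of 17 (70.6%, against 47.9%) and a co-localized peak at 7 of 17 (41.2%, against 27.2%). Smad7, an inhibitor of the pathway, had both the highest ratio, 194 at +22113, and the highest RARα score, 120 at -88.

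**Figure D5:**
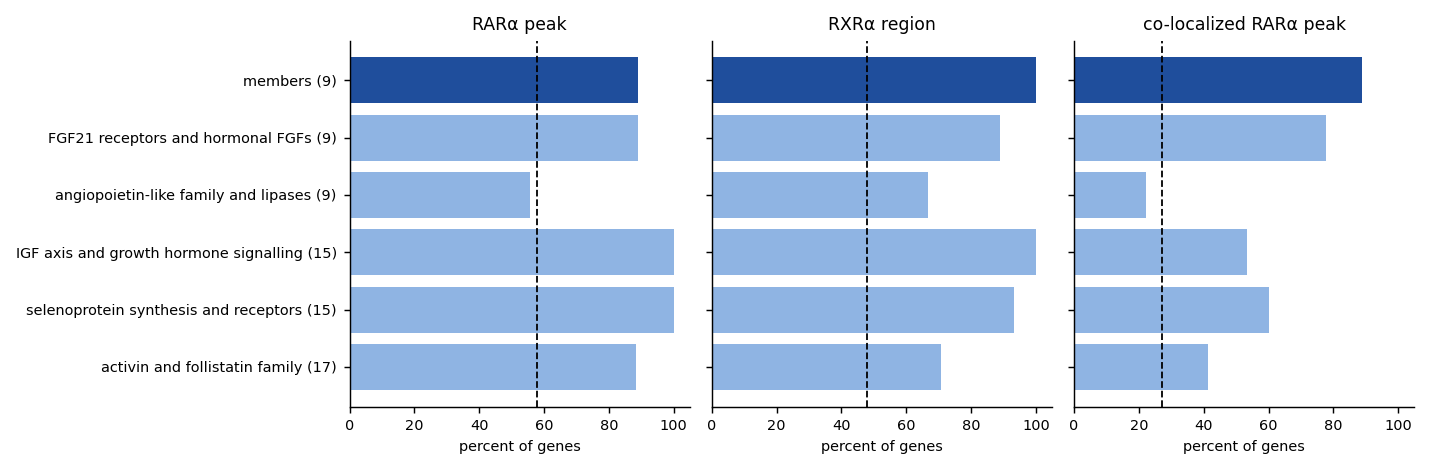
Percent of genes with a RARα peak, an RXRα region and a co-localized RARα peak, for the 9 secreted factor genes (dark bar, members) and the 5 lists of related genes (light bars, number of genes in brackets), with dashed lines at the percent of all protein-coding genes (57.9, 47.9 and 27.2). The co-localized share ran from 22.2% in the angiopoietin-like family and lipases to 88.9% in the secreted factor genes.

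Marker genes of liver cell types and of other tissues were read in the same way. Hepatocyte markers (Alb, Apoa1, Apob, Ttr, Tat and Serpina1a) had a RARα peak, an RXRα region and a co-localized peak at 6 of 6. Over all genes these shares were 57.9%, 47.9% and 27.2%. Markers of other tissues (Myh6, Ins2, Neurod1 and Actn2) had none at 0 of 4. Of the stellate markers 0 of 3, of the Kupffer markers 1 of 3 and of the endothelial markers 2 of 3 had a co-localized peak. With 3 genes each, these counts are too few to be told apart from the 27.2% of all genes. The Kupffer marker was Cd68, whose highest RARα score is nearest to Eif4a1 and whose highest RXRα ratio is nearest to Mpdu1. All 3 endothelial markers had an RXRα region. The part of each cell type in the binding at the 9 genes was not tested.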

How the data were processed

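ChIP and input libraries came from mouse liver, with 1 library per antibody. The submitters' processing notes name CASAVA 1.4 and Bowtie, and MACS for RARα, on mm9. The alignment is given as mm10 in the paper's methods, but the file headers name mm9 and 0 RARα peaks lay beyond a chromosome end of mm9, so mm9 was used. The authors deposited a signal for RXRα and for input, as whole-number coverage in 32 bp bins, where 1 read covers 5 bins. For RARα the deposited list gives a peak score, whose unit the list does not state, and a false discovery rate in percent, which was not used as a filter. Peaks were called by the authors on the single RARα library.

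The RXRα and input tracks were first brought to an equal mean. The score threshold, the 20 times input, 10 kb and 25% overlap follow the paper's methods, while joining within 200 bp, the genome mean as lowest input and the narrower interval as reference were set here. A peak was placed by its summit and a region by its midpoint. Reads are signal divided by 5. Ratios of reads have exact binomial 95% intervals, scaled to the library totals, and shares have Wilson intervals. PCR reads without molecular identifiers are not independent, so intervals cover counting error only. Against an input of 0 the fold is given over 3 reads in that bin. The genes, the 5 lists with 66 genes and the markers were chosen with earlier results of these data known. All 9 genes are named, and from each list the genes with the highest ratio and score, those lacking a feature where there are few, the nearest other gene, and for Igf1 the 2 most alike by log2 differences in ratio and score. Klb, Lpl, Ghr and Igf1r were named in addition, after their values were seen. Angptl5 was not in the annotation used. Sequences were read from the mm9 reference genome. The detection steps were tested on simulated data. Python 3.11.15, numpy 2.4.6, pandas 2.3.3, scipy 1.17.1 and matplotlib 3.10.9 were used.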

Additional observations from a re-analysis of the deposited data

How the results depend on the processing

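With 1 library per antibody no replicate could be left out. No paired analysis was possible because each antibody has 1 library. As reported, 8 genes had a RARα peak, 9 an RXRα region and 8 a co-localized peak, with 99 peaks, 43 regions and 32.3% of peaks co-localized. Without a score threshold there were 314 RARα peaks, 13.7% of them co-localized, and at scores greater than 50 there were 17 peaks and 5 genes with a co-localized one. At 5 times input there were 169 RXRα regions and 79.8% of peaks were co-localized, at 10 times 87 regions and 57.6%, and at 30 times 22.2%. The share was 44.4% with the mean input alone and 22.2% with the mean input within 1 kb. Within 10 kb and without the gene body there were 58 RARα peaks. Within 1 kb and without the body, 5 genes had a RARα peak, 4 an RXRα region and 4 a co-localized peak, with 10 peaks, 5 regions and 60.0% of peaks co-localized. Assignment to the nearest gene gave 54 peaks and 28 regions. Merging abutting peaks gave 35 peaks, 62.9% of them co-localized. The construction of each setting, with fewer or wider intervals or another threshold, sets these changes. The other 54 values for the 9 genes together stayed within 1.5 times the reported count or within the interval of the share. Among them the regions ran from 29 to 64, and at 30 times input 8 genes had a region and 6 a co-localized peak. Of the values for single genes 233 stayed within 1.5 times and 109 moved. The RARα list does not give its depth, and the RXRα region of Igfbp2 rests on few reads.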
